A study of Homo sapiens with 12 samples.

Results

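The genes described here encode the respiratory chain and ATP synthase of OVCAR-3 cells, an established line from a human ovarian adenocarcinoma. Members were chosen by symbol: NDUFA, NDUFB, NDUFC, NDUFS and NDUFV genes, SDHA to SDHD, UQCR genes, COX4 to COX8 genes, ATP5 genes and the protein-coding genes of the mitochondrial genome, without pseudogenes. MT-ATP6 and MT-ATP8 were kept, although the symbol rule for pseudogenes would drop them because of their ending. The rule found 96 of 28035 listed genes, of which 83 are encoded in the nucleus and 13 in mitochondria. The cells were treated for 6 h in 4 groups of 3 libraries. One group received Fusicoccin A with interferon alpha (labelled Combi, here the Combination), one received interferon alpha alone (IFNα), one Fusicoccin A alone (FC-A), and one the vehicle DMSO. All groups share the wild-type line and the time. FC-A is a fungal compound known for holding 14-3-3 adapter proteins to their partners, and IFNα is an antiviral cytokine. The sources used here give no doses, and nothing says that the replicates were separate cultures, so p-values measure the spread between these libraries, which may be technical.

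The respiratory chain sits in the inner mitochondrial membrane. Complex I takes electrons from NADH, complex II takes them from succinate, complex III passes them from ubiquinol to cytochrome c, and complex IV hands them to oxygen. Protons pumped on the way drive complex V, the ATP synthase. Both genomes contribute to complexes I, III, IV and V, whereas all subunits of complex II come from the nucleus. Mitochondrial genes are transcribed as long polycistronic RNAs from 2 strands and cut into shorter messages afterwards, while each nuclear gene has its own promoter.

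The promoters of 4 members are shown because these genes are described in detail below and have a motif match in this stretch. NDUFA9 was the single nuclear member that rose, and NDUFS3 and NDUFS1 were among those that fell with IFNα. ATP5O fell in the Combination against FC-A. Each line gives the 250 bases before the annotated start from RefSeq, on the strand of the gene, in GRCh38.p14. NDUFA9 lies at chr12:4648864-4649113 on the plus strand, NDUFS3 at chr11:47578824-47579073 on the plus strand, NDUFS1 at chr2:206159445-206159694 on the minus strand and ATP5O at chr21:33915805-33916054 on the minus strand. Capitals mark matches to the motif of the factor NRF1, which is GCGCA and GCGC with any 1 base between them, or to CCGGAAG, an ETS motif of the kind GABPA binds, on either strand.
NDUFA9: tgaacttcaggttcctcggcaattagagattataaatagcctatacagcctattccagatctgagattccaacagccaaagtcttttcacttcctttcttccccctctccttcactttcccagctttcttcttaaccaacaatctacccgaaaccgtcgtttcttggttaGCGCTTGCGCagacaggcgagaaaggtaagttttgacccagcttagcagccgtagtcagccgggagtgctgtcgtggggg
NDUFS3: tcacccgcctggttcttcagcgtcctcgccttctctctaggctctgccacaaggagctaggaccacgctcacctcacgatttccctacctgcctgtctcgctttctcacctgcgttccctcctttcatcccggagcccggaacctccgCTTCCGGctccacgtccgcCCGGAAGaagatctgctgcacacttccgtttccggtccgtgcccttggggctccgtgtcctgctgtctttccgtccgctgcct
NDUFS1: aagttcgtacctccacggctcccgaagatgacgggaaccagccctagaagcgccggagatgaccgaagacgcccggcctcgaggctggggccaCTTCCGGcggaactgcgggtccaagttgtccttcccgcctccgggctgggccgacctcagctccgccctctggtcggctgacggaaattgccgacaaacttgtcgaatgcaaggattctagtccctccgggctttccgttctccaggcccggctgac
ATP5O: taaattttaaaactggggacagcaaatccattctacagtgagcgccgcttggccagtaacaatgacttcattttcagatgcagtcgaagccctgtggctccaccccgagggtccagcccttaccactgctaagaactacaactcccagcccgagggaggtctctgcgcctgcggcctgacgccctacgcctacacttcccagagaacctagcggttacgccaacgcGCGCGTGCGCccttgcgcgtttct
NDUFA9 and ATP5O each held 1 NRF1 motif, NDUFS1 held 1 ETS motif and NDUFS3 held 2.

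Promoter sequences matched 66 of the 83 nuclear members, and motifs were counted on both strands in windows of 300 bases, 250 before and 50 after the start. The NRF1 motif lay in 16 of 66 member promoters, against 6.28% of 27305 promoters of all genes. The ETS motif lay in 19 of 66, against 10.7% of all promoters, and AAGATGG, the motif of the factor YY1, in 16 of 66, against 6.06%. A form of the interferon-stimulated response element, GAAA repeated after any 2 bases, lay in 0 of 66 member promoters and in 3.65% of all promoters. Among members lower in the Combination than in DMSO, 4 of 24 held the NRF1 motif, 5 of 24 the ETS motif and 7 of 24 the YY1 motif. Among the other tested members the counts were 11, 14 and 8 of 39. These matches describe the sequence only.

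Each library held between 31181742 and 39529357 reads assigned to genes. Markers of ovarian epithelium summed to between 368936 and 396833 normalized reads in the Combination, 346796 and 384425 with IFNα, 318563 and 368650 with FC-A, and 342718 and 355020 in DMSO. Of 7 fibroblast markers 3 averaged 10 or more normalized reads, and their list summed to at most 2442 in the Combination, 2156 with IFNα, 1275 with FC-A and 1146 in DMSO. Sums of leukocyte, endothelium and muscle markers stayed at or below 387 in every library. COL1A1, a collagen gene, made up most of the fibroblast sum and was higher in IFNα against DMSO (log2 1.03, SE 0.12, adjusted p = 9e-06, limma), and the part of these genes in the results below was not tested. Replicates numbered 3 stood apart: their deviations from the group means correlated at 0.188 to 0.395 between groups, against 0.018 to 0.188 for replicate 1. Results were therefore also computed without replicate 3.

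Nuclear respiratory chain genes had slightly lower medians in the comparisons with IFNα, with lower members in complexes I, III, IV and V in each. In bulk RNA, fewer cells of a type and less RNA per cell cannot be told apart. Of 90 members that averaged 10 or more normalized reads, 77 nuclear and 13 mitochondrially encoded, 24 fell and 1 rose with IFNα against DMSO (limma, adjusted p under 0.05). Over all 15990 genes tested, 46.9% passed that test, 21.5% lower and 25.4% higher. The nuclear members counted 23 lower and 1 higher of 77, with a median log2 fold change of −0.11, against −0.01 over all genes tested. The Combination against DMSO gave 31 lower and 1 higher of 77 with a median of −0.14, where 48.3% of all genes passed, 22.2% lower and 26.1% higher. The Combination against FC-A gave 29 lower and 1 higher of 77 with a median of −0.10, where 48.9% of all genes passed, 22.3% lower and 26.6% higher. These decreases were small, the largest being 1.28-fold for ATP5O in the Combination against FC-A, and NDUFA9 was the single member called at a fold change of at least 1.5. Without replicate 3, 17 nuclear members were lower in IFNα against DMSO, 31 in the Combination against DMSO and 33 in the Combination against FC-A, each with 1 higher. The shares of all genes above are from all 12 libraries, and those without replicate 3 are not given here.

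The IFNα effect was measured without FC-A (IFNα against DMSO) and with FC-A (Combination against FC-A) in pairs of groups that share no library. The lower members of these comparisons had 19 genes in common, which are 79.2% of the 24 lower in IFNα against DMSO and 63.3% of the 30 lower in the Combination against FC-A. Over all genes tested the shares were 78.1% and 75.4%. They included NDUFA2, NDUFA5, NDUFA6, NDUFA8, NDUFB1, NDUFB5, NDUFB9, NDUFB10, NDUFB11, NDUFS1, NDUFS3, NDUFV1 and NDUFV3 of complex I, UQCR10, UQCRB, UQCRC1 and UQCRC2 of complex III, and ATP5G2 of complex V. The call of NDUFA5 in IFNα against DMSO was lost without IFNα replicate 1 (adjusted p = 0.051). Scaling set how many members were called. Scaling to total reads moved the median of all genes to −0.20 in IFNα against DMSO and raised the count to 78 called members, of which 1 was higher. The share of all genes passing under that scaling is not given here, so this count is not a result about the members. Relative to the median of all genes, the nuclear median was −0.10 under both scalings.

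**Figure D1:**
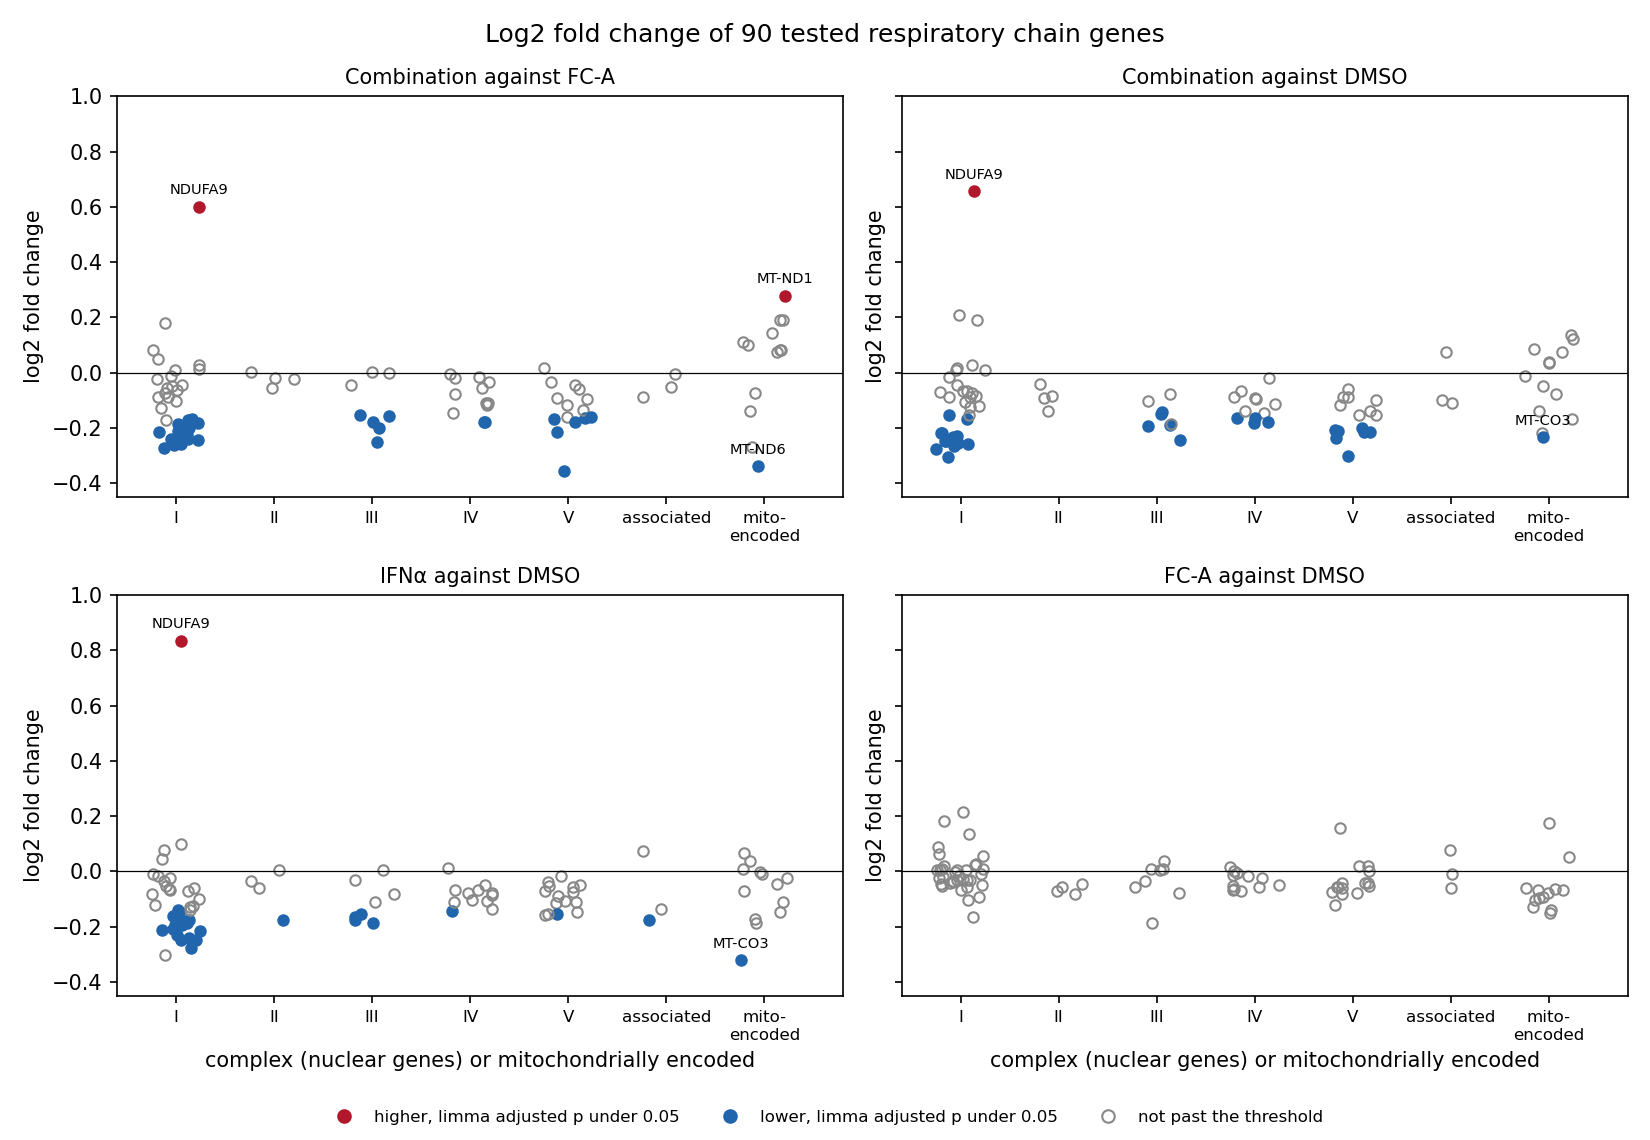
Log2 fold change of the 90 tested members in 4 comparisons, by complex for nuclear genes and with the 13 mitochondrially encoded genes on the right. Filled points passed limma's test at an adjusted p under 0.05 (red higher, blue lower). Blue points lie in complexes I, III, IV and V in each of the 3 comparisons with IFNα, NDUFA9 stands alone at the top, and no point is filled for FC-A against DMSO.

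Complex I oxidises NADH and is the largest complex of the chain. Of its 35 tested nuclear subunits, 15 were lower and 1 higher in IFNα against DMSO, 15 and 1 in the Combination against DMSO, and 16 and 1 in the Combination against FC-A. Counted in either direction, the complex I calls were close to the share called over all genes, and their direction was almost entirely downward. NDUFS3 belongs to the part that carries electrons towards ubiquinone. It had 2595, 2513 and 2525 normalized reads in the Combination, 2686, 2818 and 2647 with IFNα, 3144, 3138 and 2953 with FC-A and 3130, 3233 and 3076 in DMSO. All 6 libraries with IFNα lay below all 6 without it. The log2 fold change of NDUFS3 was −0.31 (SE 0.05, adjusted p = 7.2e-05, limma) in the Combination against DMSO, −0.21 (SE 0.05, adjusted p = 0.0017) in IFNα against DMSO and −0.27 (SE 0.05, adjusted p = 0.00019) in the Combination against FC-A.

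NDUFS1, the largest iron-sulfur subunit of complex I, showed the same separation. It had 2958, 3085 and 3059 normalized reads in the Combination, 3133, 3093 and 3058 with IFNα, 3459, 3440 and 3443 with FC-A and 3632, 3583 and 3810 in DMSO. Its log2 fold change was −0.28 (SE 0.04, adjusted p = 7.8e-05) in the Combination and −0.25 (SE 0.04, adjusted p = 0.00023) with IFNα, each against DMSO. NDUFA2, a small accessory subunit, had 1168, 1145 and 1158 normalized reads in the Combination, 1156, 1188 and 1083 with IFNα, 1311, 1400 and 1395 with FC-A and 1401, 1385 and 1365 in DMSO. Again no library with IFNα reached one without it, and the log2 fold change was −0.28 (SE 0.05, adjusted p = 0.00052) in IFNα against DMSO. NDUFB10, an accessory subunit of the membrane arm, had 7279, 7208 and 6444 normalized reads in the Combination, 6907, 7018 and 6958 with IFNα, 8170, 8266 and 7760 with FC-A and 8274, 8244 and 8285 in DMSO. NDUFV1, which binds NADH, and the accessory subunits NDUFA6, NDUFA8, NDUFB5, NDUFB9 and NDUFV3 were lower in each of the 3 comparisons, with log2 fold changes between −0.15 and −0.27.

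NDUFA9, an accessory subunit next to the quinone site, moved the other way. It had 327, 355 and 316 normalized reads in the Combination, 372, 386 and 370 with IFNα, 225, 210 and 223 with FC-A and 242, 205 and 188 in DMSO. The 6 libraries with IFNα all lay above the 6 without it. The rise was 1.78-fold in IFNα against DMSO (log2 0.84, SE 0.10, adjusted p = 6.9e-06, limma), 1.58-fold in the Combination against DMSO (log2 0.66, adjusted p = 6e-05) and 1.52-fold in the Combination against FC-A (log2 0.60, adjusted p = 0.00013). NDUFA9 shares 67.9% of its coding bases with another gene on the same strand in GENCODE 29, AC005833.1. How reads that fit both genes were counted is not given in the sources used here, so the level of NDUFA9 is uncertain, and the part of that overlap in the rise was not tested.

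**Figure D2:**
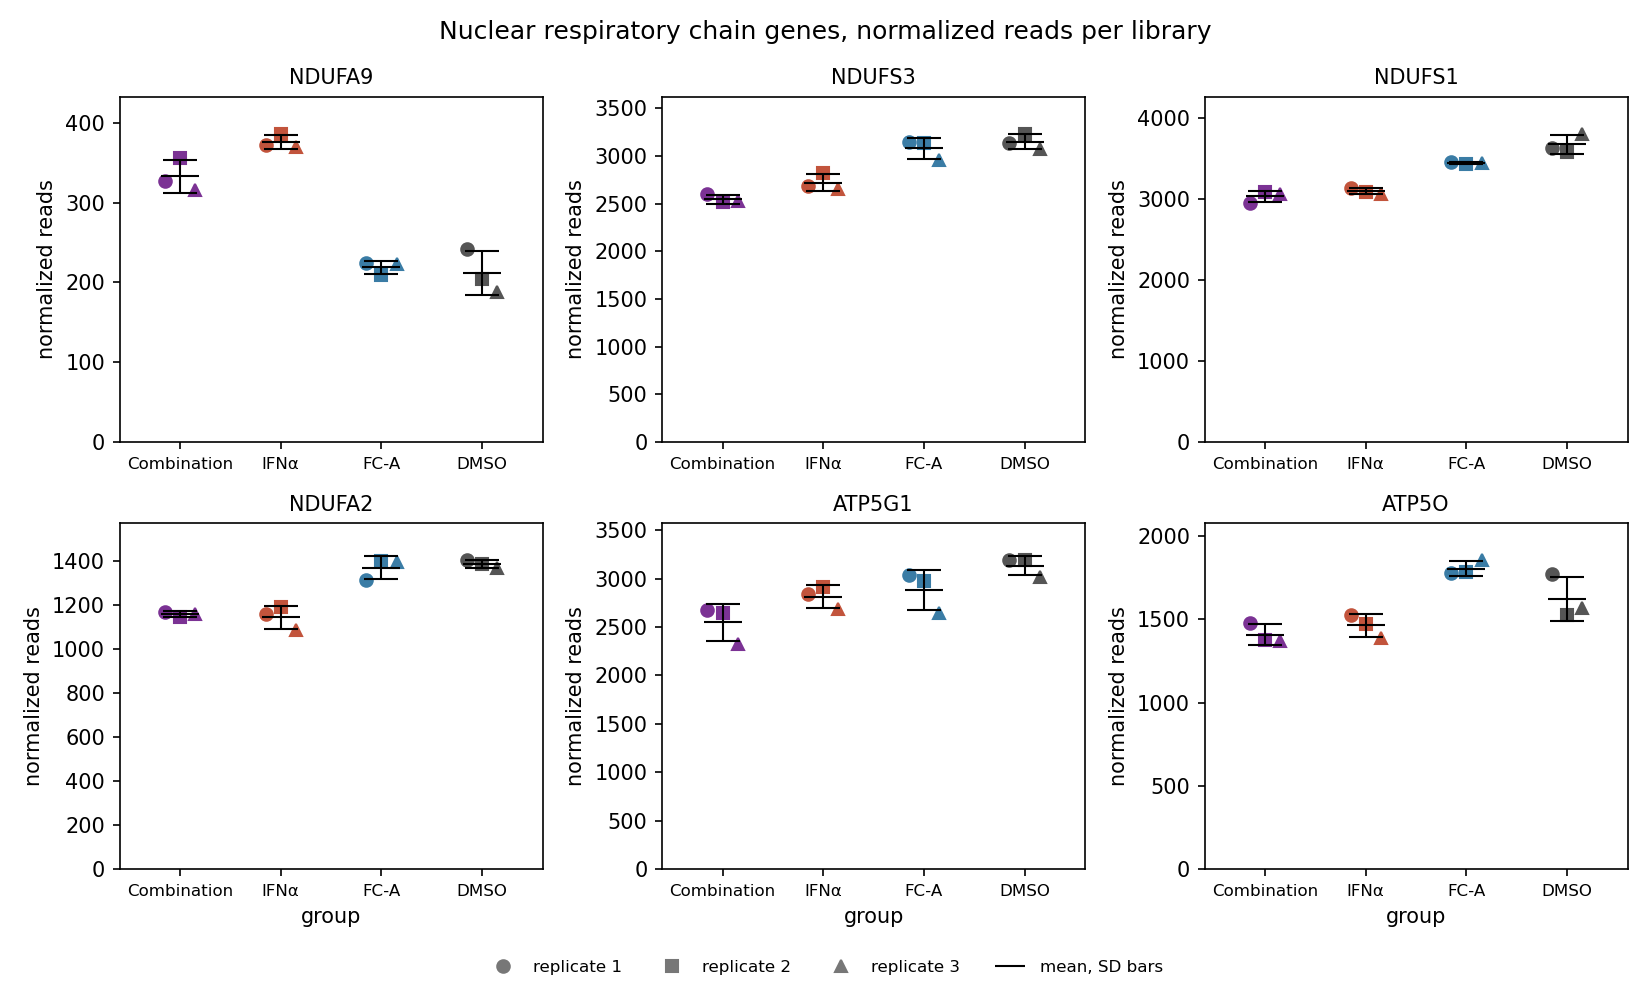
Normalized reads of 6 nuclear members in each library, by group, with replicates as symbols and the mean with SD as bars (n = 3). NDUFA9 lies between 316 and 386 with IFNα present and between 188 and 242 without it, while NDUFS3, NDUFS1 and NDUFA2 lie lower with IFNα than without it in every library.

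Complex III had several lower members and complex II a single one. Of 8 tested subunits of complex III, 4 were lower in IFNα against DMSO and 5 in each of the other 2 comparisons, and none was higher. Over all genes tested, 21.5% were lower and 25.4% higher in IFNα against DMSO. The shares were 22.2% and 26.1% in the Combination against DMSO, and 22.3% and 26.6% in the Combination against FC-A. UQCRC1 and UQCRC2 are the core proteins of the complex. UQCRC1 had 12089, 12072 and 10947 normalized reads in the Combination, 11881, 12466 and 11428 with IFNα, 13555, 13850 and 12958 with FC-A and 13312, 13577 and 13211 in DMSO. All libraries with IFNα lay below all without it, and the log2 fold change of UQCRC1 was −0.19 (SE 0.05, adjusted p = 0.0065) in the Combination against DMSO. UQCRFS1, the Rieske iron-sulfur protein, had log2 fold changes of 0.00 (SE 0.06) in IFNα against DMSO and −0.08 (SE 0.06, adjusted p = 0.3) in the Combination against DMSO.

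Among the 4 subunits of complex II, SDHD, a membrane anchor, was the single call. It had 801, 814 and 737 normalized reads with IFNα and 835, 918 and 906 in DMSO, a log2 fold change of −0.18 (SE 0.07, adjusted p = 0.044). The groups did not overlap, but the call was absent in the Combination against DMSO (log2 −0.14, adjusted p = 0.1). SDHA, the flavoprotein that oxidises succinate, had log2 fold changes of −0.06 (SE 0.05) in IFNα and −0.09 (SE 0.05) in the Combination, each against DMSO, and neither passed the test.

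Complexes IV and V had few lower members with IFNα alone and more in the Combination. Of 12 tested nuclear subunits of complex IV, 4 were lower in the Combination against DMSO and 1 in IFNα against DMSO. Of 15 of complex V, 7 were lower in the Combination against DMSO and 1 in IFNα against DMSO. Over all genes tested, 22.2% were lower in the Combination against DMSO and 21.5% in IFNα against DMSO. The counts with IFNα alone thus lay below the share over all genes. Whether these counts differ was not tested, and no member passed the test of the Combination against IFNα itself. ATP5G1 encodes one of the copies of the membrane-ring subunit c. It had 2675, 2643 and 2323 normalized reads in the Combination, 2841, 2913 and 2684 with IFNα, 3034, 2971 and 2646 with FC-A and 3188, 3188 and 3021 in DMSO. The Combination lay below DMSO in every library, with a log2 fold change of −0.30 (SE 0.07, adjusted p = 0.0017), but it overlapped FC-A. Against FC-A the log2 fold change of ATP5G1 was −0.18 (adjusted p = 0.035), and that call was lost without Combination replicate 3 (adjusted p = 0.16), FC-A replicate 1 (0.11) or FC-A replicate 2 (0.12).

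The other subunit c genes differed in their calls. ATP5G2 was lower in IFNα against DMSO (log2 −0.16, SE 0.04, adjusted p = 0.0076), in the Combination against DMSO (−0.21, SE 0.04) and in the Combination against FC-A (−0.21, SE 0.04). ATP5G3 did not pass in any of these comparisons, with log2 fold changes of −0.05, −0.15 and −0.09 (SE 0.06 each). ATP5O, a stalk subunit of the synthase, had 1480, 1378 and 1369 normalized reads in the Combination, 1525, 1474 and 1391 with IFNα, 1778, 1782 and 1855 with FC-A and 1774, 1525 and 1570 in DMSO. It was the nuclear member with the largest decrease in the Combination against FC-A (log2 −0.36, SE 0.06, adjusted p = 0.00029), and its FC-A libraries lay above all others. In IFNα against DMSO it was not called. ATP5O shares 62.6% of its coding bases with a same-strand gene, and its level is uncertain for that reason.

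The catalytic beta subunit gene ATP5B had 25347, 25961 and 24005 normalized reads in the Combination, 27871, 29043 and 25202 with IFNα, 29367, 28504 and 26775 with FC-A and 29162, 29350 and 28605 in DMSO. It fell in the Combination against DMSO (log2 −0.21, SE 0.06, adjusted p = 0.0081), while IFNα alone overlapped DMSO (−0.09, SE 0.06, adjusted p = 0.23). In complex IV, COX4I1, a regulatory subunit, had log2 fold changes of −0.18 (SE 0.05, adjusted p = 0.012) in the Combination and −0.11 (SE 0.05, adjusted p = 0.11) in IFNα, each against DMSO. Its counterpart COX4I2, a form used in lung and under low oxygen, averaged 0.328 normalized reads over the 12 libraries and was not tested. COX7A2 did not pass in any comparison. COX7A2L, a factor of supercomplex assembly, was lower in IFNα against DMSO (log2 −0.17, adjusted p = 0.019), a call lost without replicate 3 (adjusted p = 0.11), DMSO replicate 2 (0.058), DMSO replicate 3 (0.082) or IFNα replicate 3 (0.067).

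FC-A moved no member past the test. Against DMSO, 0 of 90 members passed limma's test, where 0.3% of all genes did, 0.156% higher and 0.144% lower, and 4 members had an unadjusted p under 0.05. edgeR and DESeq2 on the recovered reads also called 0. The nuclear median was −0.03 and the mitochondrial median −0.08 on the log2 scale. On top of IFNα the result was similar: 0 of 90 members passed in the Combination against IFNα, where 0.331% of all genes did, 0.138% higher and 0.194% lower. Here 3 members had an unadjusted p under 0.05, and edgeR and DESeq2 called 0. The interaction of FC-A and IFNα was called for 0 of 90 members and 0.0% of all genes, with 3 members at an unadjusted p under 0.05 and 0 calls by edgeR or DESeq2.

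Reads on the members as a share of all reads separated the libraries by IFNα for the nuclear genes and less clearly for the mitochondrial ones. Nuclear members took 0.665%, 0.654% and 0.63% of reads in the Combination, 0.674%, 0.684% and 0.652% with IFNα, 0.822%, 0.828% and 0.798% with FC-A and 0.83%, 0.822% and 0.832% in DMSO. No library with IFNα reached one without it. Shares of all reads follow total-count scaling, under which the median of all genes stood at −0.20 in IFNα against DMSO, so they show a larger difference than the deposited normalized values.

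Mitochondrially encoded members took 2.56%, 2.62% and 2.66% of reads in the Combination, 2.46%, 2.13% and 2.86% with IFNα, 2.94%, 2.68% and 2.76% with FC-A and 2.83%, 2.93% and 3.08% in DMSO. IFNα libraries spread widely, and replicate 3 overlapped the groups without IFNα. For each read on a nuclear member there were 4.03 ± 0.188 reads on mitochondrial members in the Combination, 3.72 ± 0.64 with IFNα, 3.42 ± 0.174 with FC-A and 3.56 ± 0.145 in DMSO (SD, n = 3 each). The Combination lay above FC-A and DMSO in every library, whereas IFNα overlapped both. Reads on nuclear pseudogene copies of mitochondrial genes were at most 0.00029% of all reads.

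**Figure D3:**
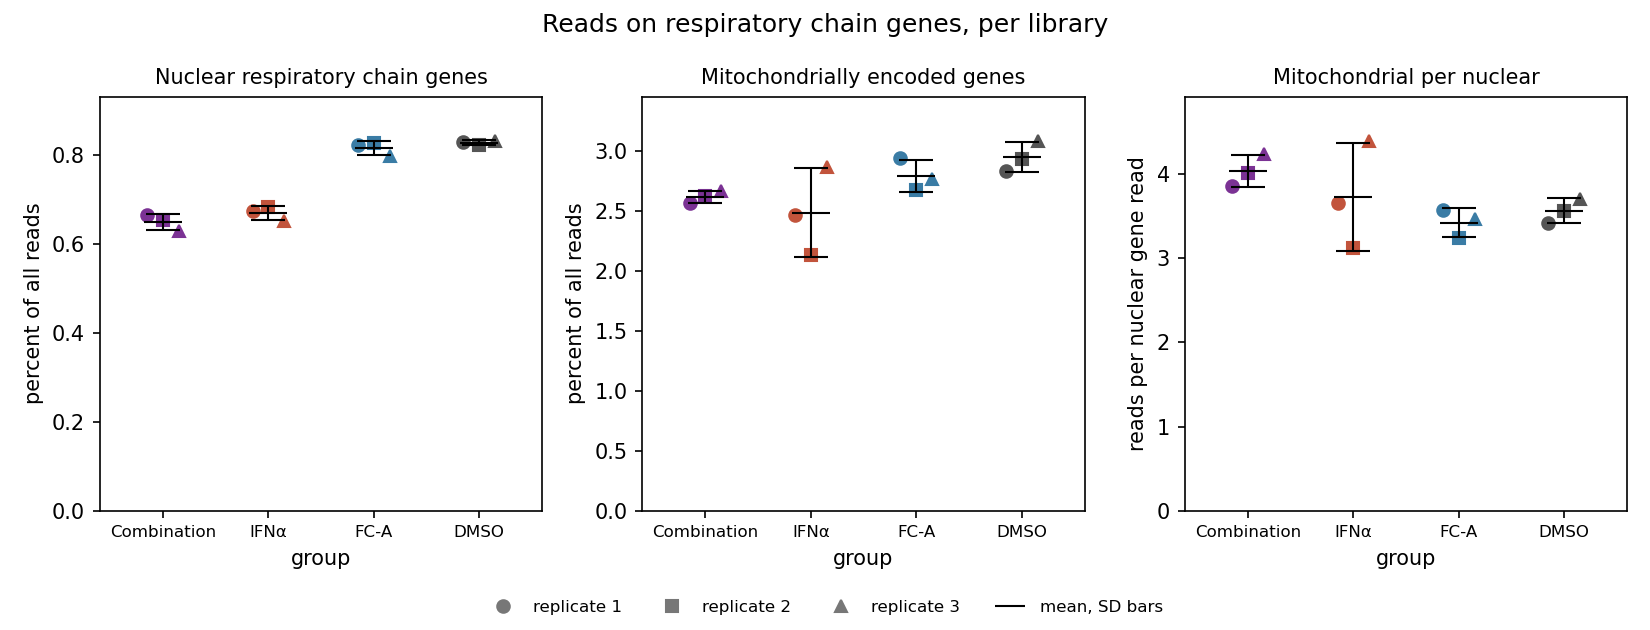
Percent of all reads on the 83 nuclear members and on the 13 mitochondrially encoded members, and reads on mitochondrial members per read on nuclear members, for each library by group with mean and SD (n = 3). The nuclear share lies between 0.63% and 0.684% with IFNα present and between 0.798% and 0.832% without it, while the mitochondrial shares of IFNα and FC-A overlap.

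Few mitochondrially encoded genes passed the test with all libraries. With IFNα against DMSO 1 of 13 fell, MT-CO3, a core subunit of complex IV, and the median of the 13 was −0.05 on the log2 scale. In the Combination against DMSO MT-CO3 again was the single call, with a median of −0.01. In the Combination against FC-A MT-ND1 of complex I was higher and MT-ND6 lower, with a median of 0.08 that turned to −0.16 under quantile normalization, −0.11 under total-count scaling and −0.12 under total-count scaling without mitochondrial genes. The nuclear median stayed negative under each of these scalings. Without replicate 3 more of the 13 passed: MT-CO3, MT-CYB, MT-ATP6 and MT-ND3, which makes 4, were lower in IFNα against DMSO. In the Combination against FC-A, MT-CO1 was then also higher and MT-CO3 lower, while MT-CO3 was again the single call in the Combination against DMSO. The share of all genes passing without replicate 3 is not given here. MT-CO3 had 91343, 94685 and 98363 normalized reads in the Combination, 88324, 78323 and 102579 with IFNα, 108318, 100671 and 104001 with FC-A and 107426, 111569 and 115694 in DMSO. Both groups with IFNα lay below DMSO, and the IFNα replicates ranged most widely.

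The log2 fold change of MT-CO3 was −0.32 (SE 0.08, adjusted p = 0.0049) in IFNα against DMSO, −0.23 (SE 0.08, adjusted p = 0.028) in the Combination against DMSO and −0.14 (SE 0.08, adjusted p = 0.18) in the Combination against FC-A. The call in the Combination against DMSO was lost without Combination replicate 1 (adjusted p = 0.092) or 2 (0.067), or DMSO replicate 2 (0.067) or 3 (0.095). MT-ND1 had 96471, 96903 and 95017 normalized reads in the Combination, against 87862, 76476 and 74153 with FC-A. The groups did not overlap (log2 0.28, SE 0.08, adjusted p = 0.013), but the call was lost under quantile normalization (0.00), total-count scaling (0.08) and without FC-A replicate 2 (adjusted p = 0.054). MT-ND6, the one protein gene read from the other strand of the mitochondrial genome, had 1699, 1940 and 1786 normalized reads in the Combination and 2155, 2210 and 2508 with FC-A (log2 −0.34, SE 0.07, adjusted p = 0.0014).

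Within the reads of the 13 mitochondrial genes, the shares of 3 genes differed between libraries with and without IFNα. MT-CO3 made up 9.61%, 9.78% and 10.03% of these reads in the Combination, 9.66%, 9.78% and 9.88% with IFNα, 11.27%, 11.67% and 11.89% with FC-A and 11.64%, 11.73% and 11.65% in DMSO. The share of MT-CYB, the complex III subunit, lay between 6.28% and 6.52% with IFNα present and between 7.02% and 7.27% without it. MT-ND1 went the other way, with 9.69% to 10.15% when IFNα was present and 8.47% to 9.20% when it was not. These 3 of the 13 genes had shares that did not overlap between the 6 libraries with and the 6 without IFNα, and the other 10 overlapped. The 3 are given as a description, chosen after their values were seen. How often genes outside the 13 separate in this way is not given here. Reads on MT-CO3 per read on MT-ND1 were 0.986 ± 0.045 in the Combination, 0.975 ± 0.017 with IFNα, 1.32 ± 0.085 with FC-A and 1.28 ± 0.0089 in DMSO (SD, n = 3 each). These shares show unequal change among the genes, not which of them moved.

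**Figure D4:**
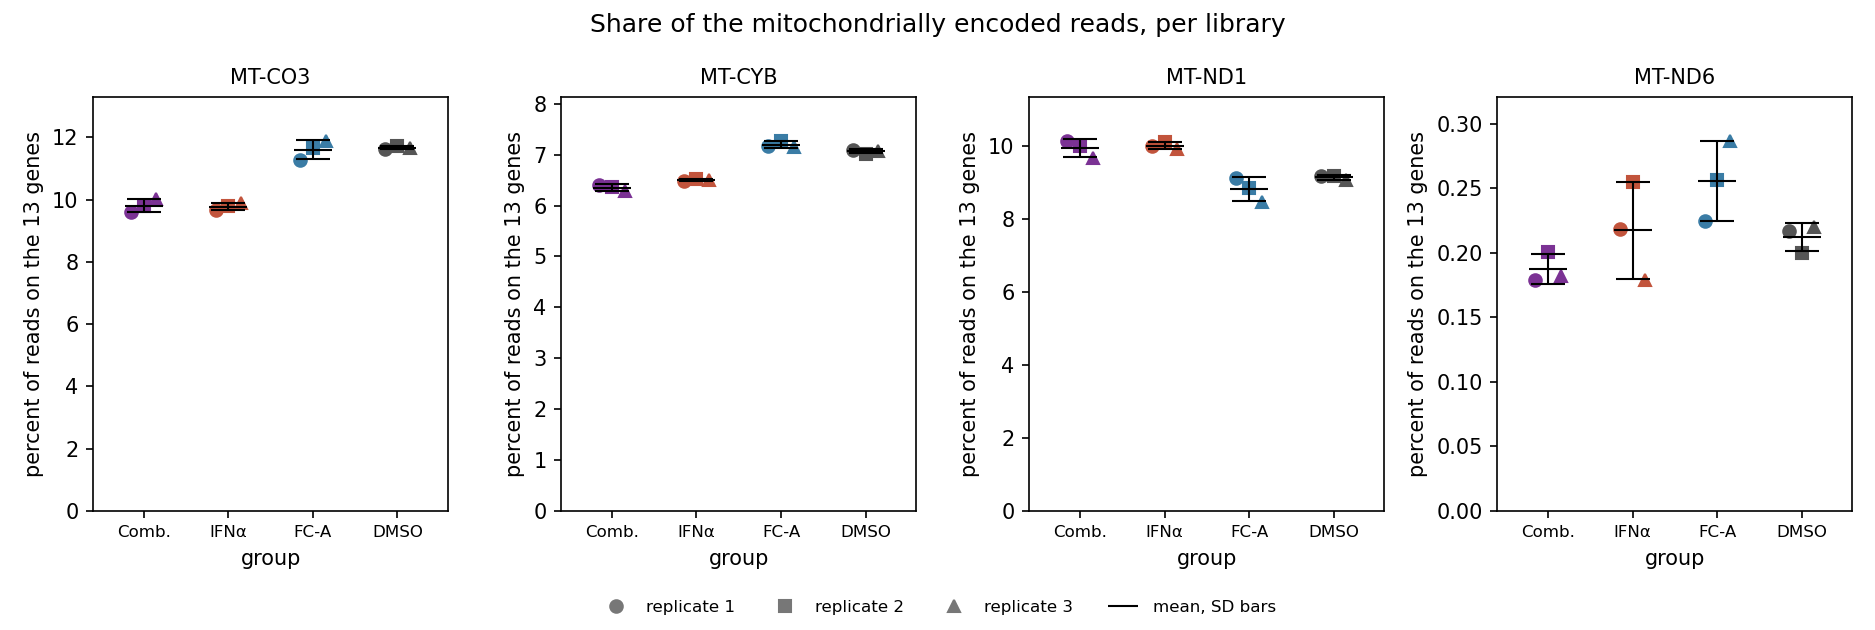
Share of the reads on the 13 mitochondrially encoded genes taken by MT-CO3, MT-CYB, MT-ND1 and MT-ND6 in each library, by group with mean and SD (n = 3, Comb. is the Combination). MT-CO3 and MT-CYB lie lower and MT-ND1 higher in all 6 libraries with IFNα, while MT-ND6 overlaps.

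Levels per length ordered the mitochondrial genes. In normalized reads per kilobase, DMSO libraries held 142299 ± 5273 for MT-CO3, 139694 ± 5614 for MT-CO1 and 138107 ± 3272 for MT-CO2, the 3 mitochondrial subunits of complex IV. MT-ND4 followed with 111184 ± 4813 and MT-ATP6 of complex V with 97279 ± 2751. MT-ND5 had 30602 ± 1749 and MT-ND3 28803 ± 963. MT-ND6 was lowest with 3867 ± 276 (SD, n = 3 each). These are poly(A) libraries, and the part of unequal capture of the messages in this order was not tested. With IFNα, MT-CO3 had 114467 ± 15548 and MT-CO1 140485 ± 22539. Libraries of a group shared much of this spread: reads on MT-CO3 per read on MT-CO1, not scaled to length, were 0.404 ± 0.0080 in the Combination, 0.415 ± 0.011 with IFNα, 0.508 ± 0.017 with FC-A and 0.518 ± 0.0028 in DMSO (SD, n = 3 each). No library with IFNα overlapped one without it in this ratio. MT-ATP8 overlaps MT-ATP6 over 21.1% of its coding bases, so its value is uncertain.

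The 2 mitochondrial ribosomal RNAs, which are no members, carry short tails and are caught in part by poly(A) selection. MT-RNR1 had 16756, 16018 and 17974 normalized reads in the Combination and 13307, 15455 and 14198 in DMSO, a log2 fold change of 0.24 (SE 0.07, adjusted p = 0.015). MT-RNR2 was higher by 0.26 (SE 0.10, adjusted p = 0.037). Neither passed in IFNα against DMSO (log2 0.00, SE 0.07, and 0.05, SE 0.10). Both calls were lost under total-count scaling (adjusted p = 0.58 and 0.57), and MT-RNR1 turned to −0.03 under quantile normalization. The call of MT-RNR1 was also lost without Combination replicate 3 (adjusted p = 0.061) or DMSO replicate 1 (0.076). That of MT-RNR2 was lost without Combination replicate 2 (adjusted p = 0.054) or 3 (0.14), or DMSO replicate 1 (0.12) or 2 (0.10).

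Some nuclear members had few reads, and 6 of 83 stayed below a mean of 10: COX4I2, COX6B2, COX8C, ATP5L2, NDUFA7 and the read-through ATP5J2-PTCD1. NDUFA7 averaged 5.89 normalized reads, NDUFA13 50.6 and NDUFB8 118, although each encodes a structural subunit. In GENCODE 29 on GRCh38, which is not the annotation of the deposited values, 13 nuclear members share at least 50% of their coding bases with another gene on the same strand. These 13 had a median of 285 normalized reads, against 2762 for the other 70. NDUFV2 shares 84.7%, NDUFB8 85.2% and NDUFA7 78.3%. Their levels are uncertain for that reason, and what the counting did with such reads was not tested. Among the 67 tested nuclear members that share less, 23 were lower and 0 higher in IFNα against DMSO, and 29 and 0 in the Combination against DMSO.

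Close relatives of the members lie outside the symbol rule. Of 15 tested, 6 were lower and 0 higher with IFNα against DMSO, and 8 lower and 2 higher in the Combination against DMSO. Over all genes tested, 21.5% were lower and 25.4% higher with IFNα, and 22.2% and 26.1% in the Combination, which is the background for this and the following lists. SLC25A6, an ADP/ATP carrier, was lower in the Combination against DMSO (log2 −0.24, SE 0.06, adjusted p = 0.0058). CYC1, cytochrome c1, did not pass against DMSO (log2 −0.03 in IFNα and −0.09 in the Combination, SE 0.06 each). CYCS, cytochrome c itself, had log2 fold changes of 0.14 in IFNα and 0.00 in the Combination (SE 0.11 each). NDUFAB1, the acyl carrier protein held by complex I, was lower in the Combination against DMSO (log2 −0.19, SE 0.07, adjusted p = 0.035).

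Genes that build the complexes moved both ways. Of 36 tested assembly factors of complexes II to V, 18 were lower and 5 higher in the Combination against DMSO, and 13 and 3 in IFNα against DMSO. All genes tested gave 22.2% lower and 26.1% higher in the Combination and 21.5% and 25.4% with IFNα. SCO2, a copper chaperone of complex IV, averaged 1145 ± 65.1 normalized reads in the Combination and 1095 ± 49.6 with IFNα, against 592 ± 52.2 with FC-A and 553 ± 34.9 in DMSO (SD, n = 3 each). Its rise was 1.05 (SE 0.08, adjusted p = 5e-08) on the log2 scale in the Combination against DMSO. SCO2 shares 100% of its coding bases with another same-strand entry of the same symbol, and 60.9% with an antisense gene on the opposite strand. Its level is uncertain for that reason, and the part of these overlaps in the rise was not tested. LYRM7, which matures the Rieske protein, fell by 0.58 (SE 0.09, adjusted p = 9.6e-05), and C6orf57, an assembly factor of complex II now named SDHAF4, fell by 0.77 (SE 0.14, adjusted p = 0.0005). Of 16 tested assembly factors of complex I, 4 were lower and 1 higher in the Combination against DMSO, with NUBPL, which delivers iron-sulfur clusters, at −0.49 (SE 0.09, adjusted p = 0.00043). Among 21 electron carriers and quinone genes, 8 were lower and 3 higher. SQRDL, which passes electrons from sulfide to quinone, had 682, 619 and 795 normalized reads in the Combination and 233, 230 and 278 in DMSO (log2 1.49, SE 0.12, adjusted p = 9.3e-08). SQRDL shares 61.9% of its coding bases with a same-strand gene, so its level is uncertain.

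Genes that process mitochondrial RNA were higher more often than lower among those called, while genes of genome upkeep and transcription were called in both directions. Of 24 tested genes of mitochondrial RNA processing and decay, 12 were higher and 1 lower in IFNα against DMSO, 7 and 1 in the Combination against DMSO, and 14 and 1 in the Combination against FC-A. Over all genes tested, 25.4% were higher and 21.5% lower in the first of these comparisons, 26.1% and 22.2% in the second, and 26.6% and 22.3% in the third. PNPT1, the polynucleotide phosphorylase that degrades RNA in mitochondria and a known interferon-induced gene, had 12295, 12082 and 12306 normalized reads in the Combination, 13299, 13222 and 12050 with IFNα, 1720, 1557 and 1371 with FC-A and 1821, 1713 and 1663 in DMSO. The groups with IFNα lay far above those without, with a log2 fold change of 2.89 (SE 0.07, adjusted p = 1.5e-13) in IFNα against DMSO. LRPPRC and SLIRP, which stabilise mitochondrial messages, passed in neither comparison with DMSO. TFAM, which packages and transcribes the mitochondrial genome, was higher in IFNα against DMSO (log2 0.21, SE 0.06, adjusted p = 0.0074), and POLRMT, the mitochondrial RNA polymerase, did not pass (−0.03, SE 0.07). Of 20 tested genes of genome upkeep and transcription, 6 were higher and 3 lower in IFNα against DMSO, and 3 and 3 in the Combination against DMSO.

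Regulators of mitochondrial biogenesis differed among themselves. Of 20 tested, 9 were higher and 4 lower in IFNα against DMSO, and 7 and 2 in the Combination against DMSO. PPARGC1A, the coactivator known for driving respiratory genes, had 111, 139 and 116 normalized reads in the Combination, 222, 210 and 137 with IFNα, 224, 176 and 195 with FC-A and 266, 245 and 215 in DMSO. It was lower in the Combination against DMSO (log2 −0.98, SE 0.17, adjusted p = 0.00025) and did not pass in IFNα against DMSO (−0.37, SE 0.17, adjusted p = 0.085). In the Combination against IFNα it did not pass either, and those groups overlapped. Its partner PPARGC1B was higher in IFNα against DMSO (log2 0.21, SE 0.07, adjusted p = 0.024). NRF1, whose motif is shown in the promoters above, did not pass in any comparison with DMSO, and GABPA was lower in IFNα against DMSO (log2 −0.20, SE 0.05, adjusted p = 0.006). MYC was the single gene of this list lower in FC-A against DMSO (log2 −0.46, SE 0.07, adjusted p = 0.0088). That call was lost without DMSO replicate 1 (adjusted p = 0.059), DMSO replicate 2 (0.065) or FC-A replicate 2 (0.0502).

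Of 75 tested mitochondrial ribosome genes, 14 were lower and 12 higher in IFNα against DMSO, and 23 lower and 11 higher in the Combination against DMSO. MRPL34 of the large subunit fell by 0.61 (SE 0.06, adjusted p = 7.8e-07) on the log2 scale in the Combination against DMSO. Of 24 tested genes of the tricarboxylic acid cycle, which supplies the chain with NADH and succinate, 7 were lower and 6 higher in the Combination against DMSO, led by PDP1, a phosphatase that activates pyruvate dehydrogenase (log2 1.39, SE 0.07, adjusted p = 1.4e-09). Of 36 import and inner membrane genes, 9 were lower and 1 higher, with TIMM21 of the import machinery at −0.91 (SE 0.13, adjusted p = 3.6e-05). Of 19 tested genes from a list chosen for a link to interferon, 13 were higher and 1 lower. RSAD2, a radical enzyme of antiviral defence, had the largest rise (log2 8.81, SE 0.11, adjusted p = 8.6e-17). Not all of these genes encode mitochondrial proteins. A rise of such a list with IFNα was built into its choice.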

How the data were processed

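RNA of OVCAR-3 cells was sequenced from 12 libraries, 3 in each of 4 groups; per the labels, poly(A) RNA libraries were made with a stranded kit from 100 ng of RNA. Per the submitters' processing notes, bcl2fastq 2.20, FastQC, STAR 2.7.3, DESeq2 1.24.0 and the build hg19 were used. The counting program and the annotation are not named there. The authors deposited normalized counts, a signal in which each library's gene counts are divided by 1 size factor, and 100% of the values came out as whole reads within 0.01. The authors also deposited log2 fold changes with their SE, p-values and a Wald score per gene for each comparison, per the file headers; these served only as an alternative.

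limma 3.58.1 in R 4.3.3 was fitted to log2(normalized count + 1) with a variance trend and the 4 group means in 1 model, over the 15990 of 28035 genes whose mean over the 12 libraries was at least 10. This left out 12045. Fold changes are on that scale, and adjusted p-values are Benjamini-Hochberg over all genes tested in a comparison, called under 0.05. Alternatives were edgeR 4.0.16 and DESeq2 1.42.0 on recovered reads, other scalings, filters, pseudocounts, variance models and thresholds, a replicate block, and each library left out. The fits were tested on simulated data in which few genes changed, so that test does not cover a shift of many genes. Its pass rule required recovery only of fold changes larger than those of the members. Promoter sequences are from RefSeq (GRCh38.p14), and overlaps and lengths from GENCODE 29.

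The members and gene lists were chosen with earlier results of these data known. Members named were up to 10 called in each direction with the largest change in a comparison, all mitochondrially encoded ones, up to 3 called genes of each other list, and some genes fixed by name; UQCRC1, UQCRC2, UQCRFS1, SDHA, SDHD, ATP5B, COL1A1 and members listed for their overlap or low level were added for their role or after their values were seen. Other lists covered assembly factors, electron carriers, genome upkeep, RNA processing, biogenesis, the tricarboxylic acid cycle, import, proteins linked to interferon, relatives, mitochondrial ribosome, pseudogene copies, RNAs of the mitochondrial genome and cell type markers. 1 member is not reported by name here.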

Additional observations from a re-analysis of the deposited data

How the results depend on the processing

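Scaling moved the number of members called most. The counts were 25 in IFNα against DMSO, 33 in the Combination against DMSO and 32 in the Combination against FC-A. In these main fits 46.9%, 48.3% and 48.9% of all genes tested passed, in the same order. Quantile normalization gave 70, 73 and 68 in that order of comparisons, and total-count scaling gave 78, 77 and 75, with or without the mitochondrial genes. A required fold change of at least 1.5 left 1 member in each. In the Combination against IFNα the count was 0, and 1 without replicate 3. The cause was not tested. Leaving out libraries gave 17 to 27 members in IFNα against DMSO, 27 to 39 in the Combination against DMSO, 23 to 38 in the Combination against FC-A, 0 to 1 in the Combination against IFNα, and 0 for FC-A against DMSO and for the interaction. Under quantile normalization the log2 fold change turned to −0.054 for YME1L1 and −0.023 for CDH1 in IFNα against DMSO, −0.041 for YME1L1 in the Combination against FC-A and −0.025 for MT-RNR1 in the Combination against DMSO. As a percent of respiratory chain reads in place of all reads, the mitochondrially encoded share was 80.1% in the Combination, 78.6% with IFNα, 77.4% with FC-A and 78.1% in DMSO. With the replicate block, 37 members were called in IFNα against DMSO, 45 in the Combination against DMSO and 43 in the Combination against FC-A. Deviations of same-numbered libraries correlated at 0.018 to 0.395, with medians of 0.076, 0.071 and 0.260 for replicates 1, 2 and 3. Differently numbered libraries of different groups correlated at −0.354 to 0.257, with a median of −0.082. Because not all same-numbered values were above 0.1, the numbers were not taken as pairs, and the main counts ignore this shared deviation. TMM scaling gave 32, 40 and 38, edgeR 30, 40 and 39, and DESeq2 30, 35 and 36, in the same order of comparisons. The shares of all genes passing under these alternatives are not given here. The counts under these alternatives therefore do not separate the members from a shift of all genes. The nuclear median relative to all genes in IFNα against DMSO is given above. With 3 libraries a group and decreases of at most 1.28-fold, the number of libraries and the scaling limit what can be called.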
